A study of Mus musculus with 8 samples.

Results

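The miR-29 family of the mouse was measured in skeletal muscle on 8 single-colour microarrays, 4 labelled control and 4 labelled diabetic. The array carries probes for 6 of its strands (mmu-miR-29a, mmu-miR-29b, mmu-miR-29c and the opposite strands mmu-miR-29a*, mmu-miR-29b* and mmu-miR-29c*, written below without the mouse prefix), of 567 mouse miRNAs in all. These 6 were taken by name, with the control and diabetic levels of the family already known, so the differences between the groups below describe the arrays and carry no test. The design text names obese diabetic C57BL/KsJ db/db mice, which lack a working leptin receptor, and normal C57BL/KsJ db+ mice. The strain entries of the samples give db/db for the control arrays and db+ for the diabetic arrays, the reverse of the design text, whereas title, description and group entry say the same of each array. Control and diabetic therefore follow the titles throughout, and all directions rest on them. The sources used here do not give the age or sex of the mice, the muscle taken or whether each array holds a different mouse, so the spread between arrays may be partly technical.

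MicroRNAs are short RNAs that pair, mainly through the seed (bases 2 to 8), with messenger RNAs and lower their translation and stability. The miR-29 family is known for repressing collagens, elastin, fibrillin and other genes of the extracellular matrix, and also DNA methyltransferases. In muscle it takes part in the differentiation of myoblasts, and in fat and muscle cells raised levels are known to dampen insulin signalling. A miRNA hairpin yields a strand from each arm, and usually the more abundant strand is the one that acts. In the star names of this array the starred strand is the minor one. For this family the names without a star stand for the 3p arm and the starred names for the 5p arm.

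The mature sequences are shown because the 3 main strands share a seed while the starred strands do not. They come from RefSeq, assembly GRCm38.p6, and run 5′ to 3′ with the seed in capitals.
miR-29a (29a-3p): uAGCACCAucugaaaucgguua
miR-29b (29b-3p): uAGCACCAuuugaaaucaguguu
miR-29c (29c-3p): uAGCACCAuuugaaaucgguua
miR-29c* (29c-5p): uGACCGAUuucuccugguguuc
miR-29a* (29a-5p): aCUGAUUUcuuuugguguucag
The seed AGCACCA belongs to these 3 names alone among the 1679 mature names of the RefSeq table. Counted from the 5′ end, miR-29a differs from miR-29c by 1 substitution, C10U, outside the seed. From miR-29b to miR-29c there are 3 within the 22 shared positions, A18G, G21U and U22A. miR-29b ends in AGUGUU, an element known to direct it to the nucleus. miR-29c* shares no run longer than 5 bases with any of the 3 main strands. With miR-29a*, a strand not detected on these arrays, its longest shared run is 8 bases. For miR-29b* the table holds 29b-1-5p and 29b-2-5p, and the array's name does not say which was meant. The sequences of the array's probes were not used here, so how far a probe for 1 main strand also binds the others was not tested.

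The main strands come from 4 hairpins in 2 pairs. Mir29b-2 (chr1:195037040-195037120) and Mir29c (chr1:195037547-195037634) lie on the plus strand with 426 bases between them. The RefSeq gene table places both within the span of the long noncoding RNA gene A330023F24Rik. Mir29a (chr6:31062660-31062747) and Mir29b-1 (chr6:31063023-31063093) lie on the minus strand with 275 bases between them, and no other gene of the table spans either. These positions belong to GRCm38.p6 and not to mm9, the build that the probe design names. Mature miR-29b is the same sequence from both of its hairpins, so its level cannot be divided between the chromosomes. The hairpin of Mir29c shows the 2 strands that were both measured, miR-29c* first and miR-29c second, in capitals.
Mir29c: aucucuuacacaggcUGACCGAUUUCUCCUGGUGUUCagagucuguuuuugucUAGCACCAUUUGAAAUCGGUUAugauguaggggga

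On these arrays miR-29c, its partner strand miR-29c*, miR-29b and miR-29a were all higher in muscle labelled diabetic. Each of the 4 diabetic arrays exceeded each of the 4 control arrays for all 4 strands. The difference between the group means was largest for miR-29c, 2.38-fold, and smallest for miR-29a, 1.70-fold. The minor strands miR-29a* and miR-29b* gave no signal above background in either group. Levels here are spot intensities, averaged over the spots and then the probes of a miRNA and divided by the array's own 75th percentile over 152 probes detected on all 8 arrays. They are given on the log2 scale, where 0 is that percentile. A level can be compared between arrays, but not between miRNAs, because probes differ in brightness.

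**Figure D1:**
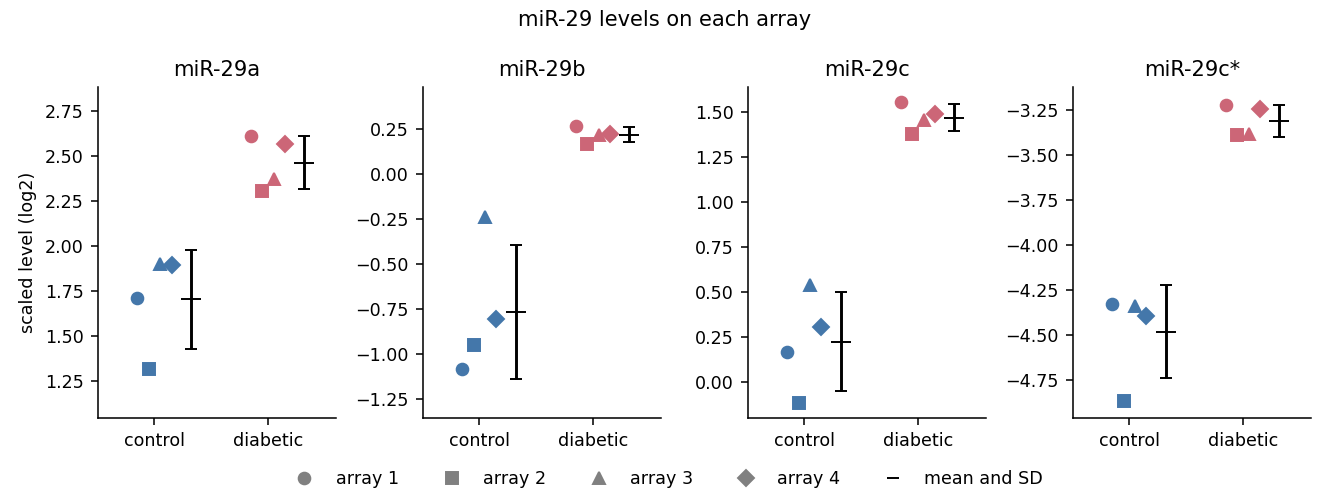
Scaled log2 level (y axis) of miR-29a, miR-29b, miR-29c and miR-29c* on the control and diabetic arrays, with a symbol per array and the mean and SD of each group; all panels span the same range of log2 units. The diabetic arrays lie above the control arrays in every panel and are packed most tightly for miR-29b, from 0.17 to 0.27.

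mmu-miR-29c had scaled log2 levels of 0.16, -0.12, 0.54 and 0.31 on control arrays 1 to 4. On diabetic arrays 1 to 4 its levels were 1.56, 1.38, 1.46 and 1.49. The groups were 0.84 apart at their nearest arrays, and control 3 was the nearest control. The means were 0.22 ± 0.27 and 1.47 ± 0.07 (SD, n = 4), a log2 difference of 1.25 (SE 0.20, 95% interval 0.80 to 1.70). Before any scaling the groups did not overlap either, but diabetic 4 came close to control 2, and the difference did not pass the threshold of the fit described below. Unscaled intensities were 345, 569, 487 and 404 on control and 1055, 1246, 1134 and 617 on diabetic arrays.

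mmu-miR-29c*, from the other arm of the same hairpin, was dim on this array. Its scaled log2 levels were -4.33, -4.87, -4.34 and -4.40 on control arrays 1 to 4. They were -3.22, -3.39, -3.38 and -3.24 on diabetic arrays 1 to 4. Control 2 was the low array, apart from the other controls, and the groups did not overlap. The means were -4.48 ± 0.26 and -3.31 ± 0.09 (SD, n = 4), and the log2 difference was 1.17 (SE 0.20, 95% interval 0.73 to 1.62). Unscaled intensities ran from 15.3 to 21.2 on control arrays, with control 2 highest, and from 23.2 to 45.7 on diabetic arrays. With normexp background correction, which adds an offset of 50, more than any of these intensities, the groups overlapped and the difference was 0.38.

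mmu-miR-29b, the strand made from both clusters, had scaled log2 levels of -1.08, -0.95, -0.23 and -0.81 on control arrays 1 to 4. On the diabetic arrays the levels were 0.27, 0.17, 0.22 and 0.23. Control 3 stood highest among the controls, 0.40 below the lowest diabetic array, whereas the diabetic arrays were almost level with each other. The means were -0.77 ± 0.37 and 0.22 ± 0.04 (SD, n = 4), and the log2 difference was 0.99 (SE 0.22, 95% interval 0.50 to 1.48). Without scaling the groups overlapped at 1 array. The intensities were 145, 320.1, 285 and 187 on control and 432, 538, 481 and 257 on diabetic arrays, with diabetic 4 below control 2 and control 3.

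mmu-miR-29a, from the chromosome 6 cluster alone, had the smallest difference of the 4. Its scaled log2 levels were 1.71, 1.31, 1.90 and 1.89 on control arrays 1 to 4 and 2.61, 2.31, 2.38 and 2.57 on diabetic arrays 1 to 4. Control 2 was the lowest array and diabetic 2 the lowest of its group. The means were 1.70 ± 0.27 and 2.47 ± 0.15 (SD, n = 4), a log2 difference of 0.76 (SE 0.21, 95% interval 0.30 to 1.22). Unscaled intensities were 1007, 1537, 1253 and 1213 on control and 2192, 2369, 2142 and 1304 on diabetic arrays. Here diabetic 4, whose percentile of 219 was the lowest of the 8 arrays, fell below control 2, whose percentile of 618 was the highest.

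miR-29a* and miR-29b* were each measured by 4 probes with 5 spots per probe. For miR-29a* 0 of 80 usable spots were well above background on control and 1 of 78 on diabetic arrays. For miR-29b* the counts were 0 of 80 in each group. Averaged over probes and unscaled, intensities ran from -0.32 to 4.83 for miR-29a* and from -0.58 to 2.63 for miR-29b*, around the value of 0 that an empty spot has after background subtraction. No fold can be given for strands below background in both groups. The 4 strands that entered the fit were detected on all 8 arrays, so none of them entered through 1 group.

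Each of the 4 detected strands had 2 probes of 10 spots, and for miR-29a, miR-29b and miR-29c the probes of a strand gave nearly the same difference. Probe 1 is the brighter of a pair. For miR-29c the log2 differences of probe 1 and probe 2 were 1.24 and 1.25. For miR-29a they were 0.76 and 0.74. For miR-29b they were 0.99 for a bright probe and 0.96 for a dim probe that was not detected on control 1. Of these 6 probes, the 5 detected on all 8 arrays each had their diabetic arrays above their control arrays in scaled level. Unscaled, this held for both probes of miR-29c. For both probes of miR-29a and the bright probe of miR-29b, unscaled diabetic 4 was below control 2.

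The scatter of spots within an array is technical and says nothing of the spread between arrays. With outlier spots left out, the coefficient of variation over the spots of a probe had a median of 4.89% to 18.3%, depending on the probe. That median runs over the arrays on which the probe was detected. The dim probe of miR-29c* was the weakest. It passed the detection limit on diabetic 1 and diabetic 3 only, 2 of the 8 arrays, with unscaled intensities of 5.67 to 9.62 (control) and 8.67 to 17.7 (diabetic), so it supports no fold of its own. The bright probe of miR-29c* was detected on all 8 arrays. Its scaled log2 levels averaged -3.81 ± 0.28 on control and -2.61 ± 0.10 on diabetic arrays (SD, n = 4), a difference of 1.20.

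**Figure D2:**
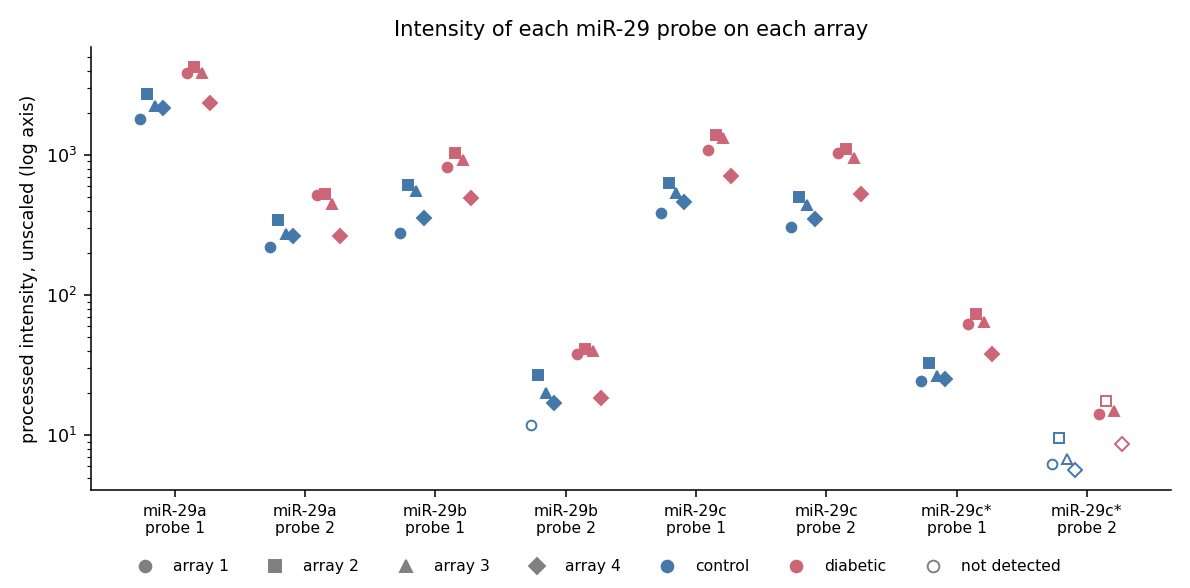
Unscaled processed intensity (y axis, log axis) of the 2 probes of each detected miR-29 strand, with a symbol per array, control to the left and diabetic to the right of each tick; open symbols mark arrays where the probe was not detected. Before scaling, diabetic 4 is the dimmest diabetic array for every probe, and the dim probe of miR-29c* is open on 6 of the 8 arrays.

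Dividing an array by a single factor leaves the ratio between 2 of its strands as it was, so such ratios show where the family members changed unequally. Quantile normalization, which reshapes each array, does move them, and its values are given beside each ratio as an alternative chosen after the data were seen. The log2 ratio of miR-29c to miR-29a was -1.55, -1.43, -1.36 and -1.59 on control arrays 1 to 4. On diabetic arrays 1 to 4 it was -1.06, -0.93, -0.92 and -1.08. The groups did not overlap, and the means were -1.48 ± 0.10 and -0.99 ± 0.08 (SD, n = 4). The ratio was thus 0.49 higher on the diabetic arrays, 1.40-fold. With quantile normalization it was 0.77 higher, and the groups again did not overlap. It was 0.41 higher with normexp and 0.39 higher with the raw median signal, which subtracts no background. The mature strands of this pair differ only by C10U. Only the size of each ratio's change between arrays can be read, since the 2 strands have different probes.

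The ratio between the strands of the Mir29c hairpin showed no such separation. The log2 ratio of miR-29c to miR-29c* was 4.49, 4.75, 4.88 and 4.70 on control and 4.78, 4.77, 4.84 and 4.73 on diabetic arrays. All 4 diabetic values lay inside the control range. The means were 4.71 ± 0.16 and 4.78 ± 0.05 (SD, n = 4), a difference of 0.07, below the spread of the controls. With quantile normalization the sign turned, to -0.16, and the diabetic values again lay inside the control range. With normexp the difference was 0.75 and with the raw median signal 0.79. The first setting adds an offset of 50 and the second subtracts no background, which by construction compresses differences of a dim strand.

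miR-29b followed neither partner closely on the control arrays. The log2 ratio of miR-29b to miR-29a was -2.79 and -2.70 on control 1 and control 4, and -2.26 and -2.14 on control 2 and control 3. On the diabetic arrays it was -2.34, -2.14, -2.15 and -2.34, close to control 2 and control 3. The means were -2.47 ± 0.32 and -2.24 ± 0.11 (SD, n = 4), and the difference of 0.23 was smaller than the control spread. It was 0.12 without control 1, 0.096 with normexp and 0.074 with the raw median signal. With quantile normalization it was 0.48, and the groups still overlapped. The log2 ratio of miR-29c to miR-29b split the controls the same way, at 1.25 and 1.11 on control 1 and control 4 against 0.83 and 0.77 on control 2 and control 3. The diabetic arrays held it at 1.29, 1.21, 1.24 and 1.26, within the reach of control 1, and the difference in means was 0.26, or 0.29 with quantile normalization.

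**Figure D3:**
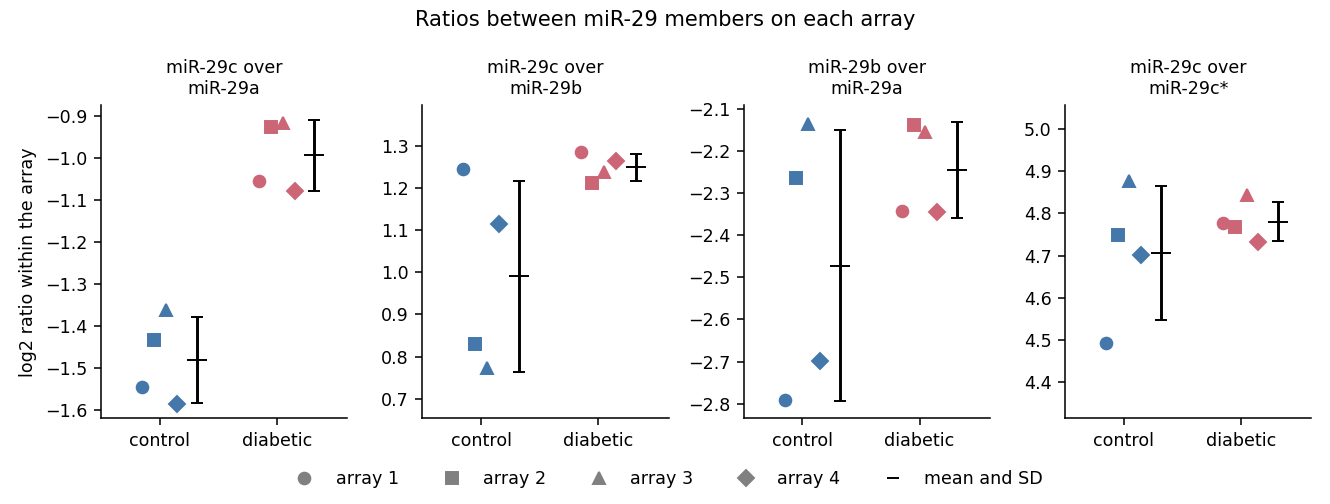
Log2 ratio (y axis) of 2 miR-29 strands within each array, with a symbol per array and the mean and SD of each group; the 4 panels span the same range of log2 units. The ratio of miR-29c to miR-29a separates the groups, the ratio of miR-29c to miR-29c* does not, and both ratios with miR-29b put control 1 and control 4 apart from control 2 and control 3.

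The family varied more among control arrays than among diabetic arrays. The SD of the log2 level was 1.85 times as large on the control arrays for miR-29a, 2.84 times for miR-29c*, 3.71 times for miR-29c and 8.85 times for miR-29b. This was not limited to the family, since 113 of the 126 tested miRNAs had a larger SD among controls, with a median SD of 0.43 against 0.23. Within the diabetic arrays, scaled in this way, the 4 strands had the same order, diabetic 2 lowest, then 3, then 4, with diabetic 1 highest. The strands share each array's scaling, which moves them together. On the control arrays control 3 was highest for miR-29a, miR-29b and miR-29c, and control 2 was lowest for miR-29a, miR-29c and miR-29c*. miR-29b was instead lowest on control 1.

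The differences were set beside those of all 126 miRNAs detected on at least 4 arrays, whatever their group. With limma (all 8 arrays, group as the single term, Benjamini-Hochberg adjustment over the 126, threshold 0.05), 6 miRNAs were called higher on the diabetic arrays, a background of 4.76%, and 3 of them were miR-29c, miR-29c* and miR-29b. miR-29a did not pass. Since the family was chosen on this contrast, nothing is read from that count. For 10 of the 126, or 7.94%, the groups were separate with the diabetic arrays on top, and 4 of the 10 were the miR-29 strands. By size of difference miR-29c ranked 2nd, miR-29c* 3rd, miR-29b 7th and miR-29a 8th from the top. The median of the 4 strands was 1.08, and that of all 126 was -0.06.

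**Figure D4:**
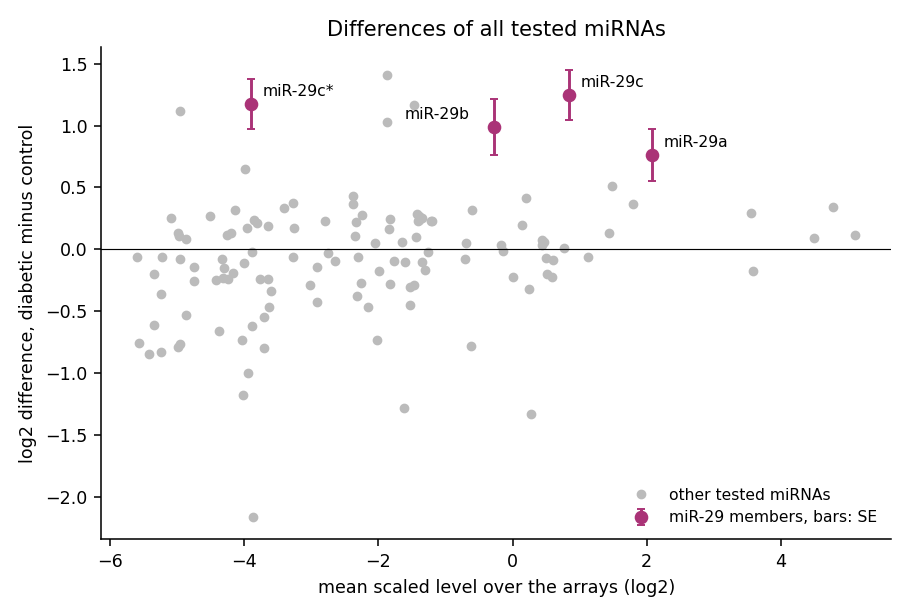
Log2 difference between the diabetic and control means (y axis) against the mean scaled log2 level over the 8 arrays (x axis) for 126 tested miRNAs, with the 4 miR-29 strands named and their SE as bars. The 4 strands lie at 0.76 to 1.25 across a wide range of brightness, while the median over all points is -0.06.

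The profile of a miRNA was also compared with all others by the root mean square distance between log2 levels over the 8 arrays, each centred on its own mean. This likeness includes the step between the groups and is a description. For miR-29c the nearest of the other 125 profiles was miR-29c*, at 0.11, where the median miRNA outside the family was at 0.73. Next came miR-193 at 0.18, miR-29b at 0.19, miR-29a at 0.26 and miR-101a at 0.26, with miR-101b at 0.34. For miR-29b the order was miR-101a at 0.17, miR-29c at 0.19, miR-193 at 0.21 and miR-29a at 0.24, with miR-101b at 0.31 and a median outside the family of 0.65.

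miR-29a had partly other neighbours. The muscle strand miR-133a* (0.21), miR-30a (0.21) and muscle-specific miR-1 (0.23) were nearest among miRNAs outside the family, where the median was 0.50. Of the family, miR-29c* lay among them at 0.22 and miR-29b just after them at 0.24. For miR-29a, miR-29c was the 10th nearest, at 0.26. The neighbour miR-193 had levels of -2.60 to -1.46 on control and -1.08 to -0.73 on diabetic arrays. miR-101a, which is known to repress Ezh2, ran from -2.88 to -1.82 and from -1.59 to -1.18. miR-101b was detected on 1 control and 3 diabetic arrays only, and its levels there have little weight. miR-1 averaged 4.62 ± 0.35 and 4.96 ± 0.04 (SD, n = 4), with a log2 difference of 0.34 (SE 0.22) that did not pass.

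Other miRNAs with roles near those of the family were counted from lists drawn up with earlier results known. Over all 126 tested, 6 were called higher and 0 lower, and 8 were higher and 13 lower at an unadjusted p under 0.05. Of 19 miRNAs known to act on matrix genes or fibrosis, 16 were tested, and limma called 2 higher and 0 lower (2 higher and 2 lower at an unadjusted p under 0.05). The 2 were miR-101a and miR-101b, the latter detected on 1 control array only, and the median log2 difference of the list was 0.10, beside -0.06 for all tested miRNAs. Its extremes were miR-101b at 1.12 (SE 0.27) and miR-15b at -0.74 (SE 0.32). Of 19 miRNAs outside the family that are linked to insulin and glucose metabolism, 14 were tested. Limma called 0 in either direction, with 0 at an unadjusted p under 0.05 as well, and their median was -0.07. Its extremes were miR-1 at 0.34 (SE 0.22) and miR-223, a miRNA of myeloid cells, at -1.29 (SE 0.62).

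The arrays carried the miRNAs of muscle, with 6 of 9 muscle miRNAs detected on all 8 arrays, while miR-208a and miR-499 were detected on 0. The summed scaled level of that list was 54.5 to 106 on control and 81.7 to 111 on diabetic arrays. Those sums follow the brightest miRNAs. Of the 7 tested, limma called 0, and 1 was lower at an unadjusted p under 0.05, the muscle miRNA miR-206 at -1.33 (SE 0.44). Of the tested markers of other cells limma called 0 in either direction; at an unadjusted p under 0.05, 1 leukocyte and 1 stromal miRNA were lower and 0 were higher. Leukocyte miRNAs summed to 0.383 to 2.09 on the control and 0.215 to 0.665 on the diabetic arrays, with 3 of 6 tested and miR-150 detected on 0 arrays. Stromal miRNAs of fibroblasts and smooth muscle, cell types that also carry miR-29, summed to 0.609 to 0.976 and 0.579 to 0.625. Of these, 5 of 6 were tested and all 5 differences were below 0, beside 68 of all 126 tested miRNAs. Erythroid miRNAs summed to 0.852 to 2.43 and 0.688 to 1.51, and the endothelial pair to 1.59 to 2.65 and 1.79 to 2.45. Each of these lists had 1 tested miRNA, erythroid miR-451 and endothelial miR-126-3p. Their partners miR-144 and miR-126-5p were detected on 1 and 0 arrays. The liver miRNA miR-122 was detected on 5 arrays, and the liver list summed to 0.0385 to 0.190 and 0.0736 to 0.121. Neural miR-9 and miR-124 and all 5 epithelial miRNAs were detected on 0 arrays. The remaining neural miRNA, miR-128, was detected on 8 arrays, with a log2 difference of -0.14 (SE 0.23). The part of these cells in the miR-29 differences was not tested, and in whole muscle more cells of a type and more miRNA per cell cannot be told apart.

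The 8 arrays shared a slide and a scan. Its row 1 held every control array and its row 2 every diabetic array, so row and group cannot be told apart. Between 102 and 147 miRNAs were detected per array. Across the 126 tested miRNAs control 3 correlated at 0.955 to 0.968 with the other controls and at 0.970 to 0.985 with the diabetic group. The same comparison is not given for the other control arrays. These correlations run over miRNAs, which are not independent replicates. Without control 3 the log2 differences were 1.35 for miR-29c, 1.22 for miR-29c*, 1.17 for miR-29b and 0.83 for miR-29a. For miR-29c, miR-29b and miR-29a these were the highest values reached by leaving out any single array. Saturation was flagged for 0 spots of mouse miRNAs.

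**Figure D5:**
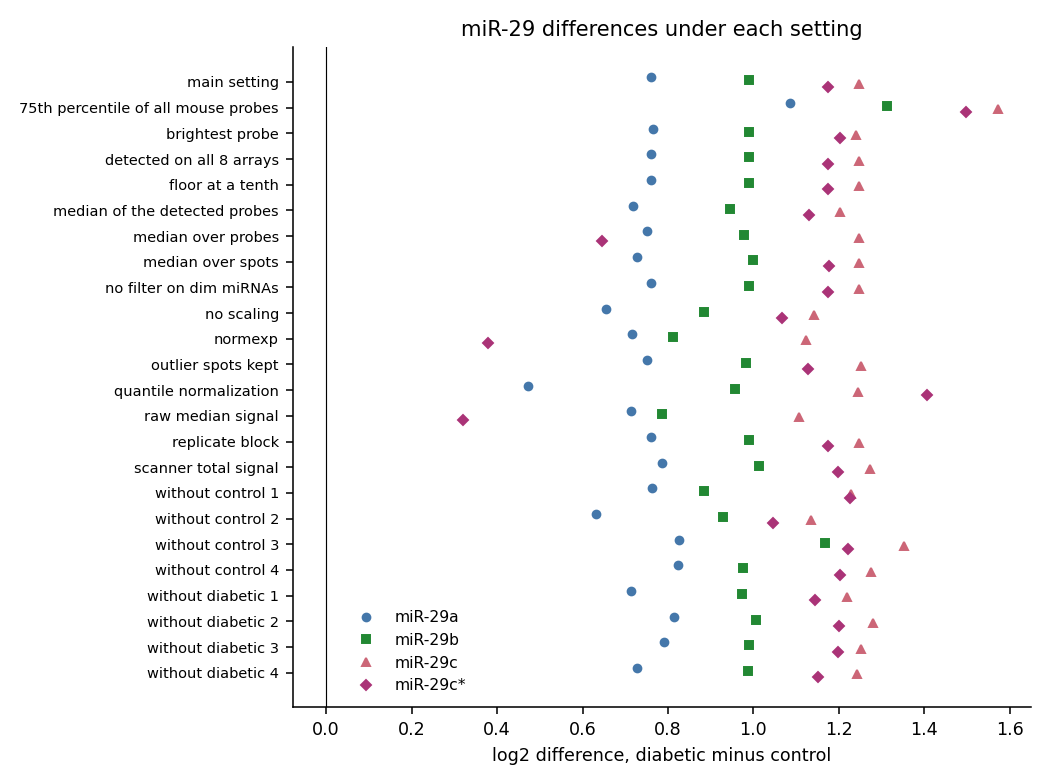
Log2 difference between the diabetic and control means (x axis) of the 4 miR-29 strands under the main setting and 23 others (y axis), a symbol per strand. All values are above 0; miR-29c lies between 1.11 and 1.57, and miR-29c* reaches down to 0.32 where background is left in or an offset is added.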

How the data were processed

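The authors deposited spot intensities, made per the file headers with Feature Extraction 10.5, which subtracts a detrended background and does not normalize between arrays. The deposited flags of 0 and 1 mark outlier, saturated and detected spots. Each array received 100 ng of total RNA carrying Cy3, per the labels. The submitters' normalization and test are not given in the sources used here.

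Control spots, viral probes and outlier spots were left out. Detection of a probe required 50% or more of its spots well above background. Scaled levels were raised to a floor of -5.95 (log2), the 1st percentile of detected levels. Groups came from the titles and entered limma 3.58.1 (R 4.3.3). The fit was tried on simulated data with larger shifts than those of the miR-29 strands, which does not show how it behaves at theirs. An SE is from the moderated variance. The number of arrays limits the precision. Deviations of same-numbered arrays from their group means correlated at 0.21, 0.08, 0.51 and -0.29, so replicate numbers were not taken as pairs. Because no mean signal was given, normexp used the raw median.

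The members, lists and tests were chosen with earlier results of these data known. The text names the 6 strands, the 3 nearest profiles of each main strand and the extremes of the matrix and insulin lists. Other miRNAs it names were chosen after their values were seen. Alternatives covered scaling, background, probe and spot summaries, floor, filter, a replicate block and each array left out.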

Additional observations from a re-analysis of the deposited data

Results flagged for a closer look

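Of 28 groups of 4 arrays checked for a value far from the rest (levels and ratios of the miR-29 strands, brightness and number of miRNAs detected), 2 held such a value, and chance gives about 1 in 20. Both concern control 2. Its scaled log2 level of miR-29c* was -4.87, against -4.40 to -4.33 on the other control arrays. Its brightness, the log2 of the 75th percentile used for scaling, was 9.27, against 8.27 to 8.39. The scaled level is divided by that percentile, so the 2 flags are not independent. Unscaled, control 2 had the highest miR-29c* intensity of the controls, 21.2 against 15.3 to 16.6. Without control 2 the log2 difference of miR-29c* between the groups was 1.05, against 1.17 with all 8 arrays.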

How the results depend on the processing

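All 4 miR-29 differences stayed above 0 under the 23 alternatives. Leaving out each array in turn gave 1.13 to 1.35 for miR-29c, 1.05 to 1.22 for miR-29c*, 0.88 to 1.17 for miR-29b and 0.63 to 0.83 for miR-29a. With the percentile over all mouse probes they were 1.57, 1.50, 1.31 and 1.08, and the median of all tested miRNAs moved from -0.06 to 0.26. Quantile normalization of the probes gave 0.47 for miR-29a and 1.41 for miR-29c*. miR-29c* was at 0.38 with normexp, 0.32 with the raw median signal and 0.65 with the median over probes, where the floor of -4.81 lifts its dim probe. Quantile normalization, added for the ratios after the data were seen, gave 0.77 for miR-29c to miR-29a, 0.48 for miR-29b to miR-29a and -0.16 for miR-29c to miR-29c*, the opposite sign to the main 0.07. With normexp, the raw median signal and the median over probes the ratio of miR-29c to miR-29c* differed by 0.75, 0.79 and 0.60. Leaving out single arrays it differed by 0.004 to 0.13, the ratio to miR-29a by 0.45 to 0.53, the ratio to miR-29b by 0.19 to 0.34 and that of miR-29b to miR-29a by 0.12 to 0.34. With normexp and the raw median signal the ratio of miR-29c to miR-29a differed by 0.41 and 0.39. The ratio of miR-29c to miR-29b then differed by 0.31 and 0.32, and that of miR-29b to miR-29a by 0.096 and 0.074.

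Against the limma threshold miR-29c passed in 22 of 23 alternatives, miR-29c* in 20, miR-29b in 15 and miR-29a in 8. The strands were chosen on this contrast and the alternatives reuse the same arrays, so these counts are no test of the strands. Of all tested miRNAs, 6 were called higher and 0 lower (13 lower at an unadjusted p under 0.05). Higher calls numbered 2 with no filter on dim miRNAs and 0, miR-29 included, with no scaling. Leaving out an array gave 2 to 7, of which 2 to 3 were miR-29 strands. Higher calls among all tested miRNAs were 2 when the array was control 1 or 2 or diabetic 1, 2 or 3. These calls were 3 when it was diabetic 4 and 7 when it was control 3 or 4. Lower calls were 1 with the percentile over all mouse probes and with the scanner's total signal, 2 with the brightest probe, the median of the detected probes and the filter on all 8 arrays, and 3 with normexp and the raw median signal. Leaving out single arrays gave 0 to 3 lower calls, 3 without control 3 and 1 without diabetic 4. The causes of these changes were not tested. With the replicate block the counts were 7 higher and 3 lower, the 4 differences were unchanged and the same 3 of them passed; 1 of 8 arrays correlated best with an array of its own number.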
